A study of Mus musculus with 2 samples.

Results

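Mir335, Mir296, Mir298, Mir483 and Mir675 are miRNA genes of imprinted loci other than the Dlk1-Dio3 region. They were chosen by locus, as the miRNA genes at Mest, at Gnas and Nespas, at Igf2 and at H19, and make up 5 of the 1973 gene identifiers counted. Small RNA was read from the forebrain of mouse embryos of strain B6NCrl, healthy and untreated as far as the labels say, with males and females pooled, at embryonic day 10.5. The samples form 1 group of 2 libraries. Replicate 1 pooled 69 embryos and replicate 2 pooled 51 embryos, so a library averages over many brains and shows no spread between single animals. The gene-strand counts came to 3256070 in replicate 1 and 3574530 in replicate 2. The libraries carry no allele information, so the parental chromosome from which a miRNA was made cannot be read from them. They also hold only small fragments, so the levels of the host RNAs were not measured.

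An imprinted gene is expressed mainly from the chromosome inherited from the mother or mainly from that inherited from the father. Mest and Igf2 are known as paternally expressed genes of the embryo, the antisense RNA Nespas of the Gnas locus is paternally expressed, and H19 is a maternally expressed long non-coding RNA. A miRNA gene is transcribed as a longer RNA, cut to a hairpin and then to a short duplex, and a strand of that duplex guides the repression of mRNAs through its seed, bases 2 to 8. Igf2 promotes growth of the embryo, and H19 lies beside it under shared enhancers.

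The mature sequences of the 5 genes are shown because the seed sets which mRNAs a miRNA can pair with, and because reads of a sequence found at several loci would not have been counted. They are RefSeq's for GRCm38.p6, written 5′ to 3′ with the seed in capitals, and all 5 genes were matched by symbol.
mmu-miR-335-5p: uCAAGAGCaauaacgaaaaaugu
mmu-miR-335-3p: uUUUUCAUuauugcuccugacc
mmu-miR-296-5p: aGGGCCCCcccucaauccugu
mmu-miR-296-3p: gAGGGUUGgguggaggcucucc
mmu-miR-298-5p: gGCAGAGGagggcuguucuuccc
mmu-miR-298-3p: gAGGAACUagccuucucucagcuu
mmu-miR-483-5p: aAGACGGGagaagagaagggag
mmu-miR-483-3p: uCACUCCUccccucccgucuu
mmu-miR-675-5p: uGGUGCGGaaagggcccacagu
mmu-miR-675-3p: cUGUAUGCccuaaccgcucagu

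No seed was shared among the 10 mature sequences, and none of them had its seed in a mature sequence of another gene among the 1738 in the table. The shorter stretch of bases 2 to 7 was shared with another gene by 4 of the 10. The 5 genes therefore do not form a family by seed. None of the 10 was found in the hairpin of another gene, over 1005 hairpins. The sequences did differ in base composition. The arms of Mir335 had 30.4% (5p) and 36.4% (3p) G and C, whereas the other 8 ran from 50.0% for miR-298-3p to 68.2% for miR-296-3p. The median of the 1738 mature sequences was 52.2%.

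The hairpins of the gene with the highest level and of the neighbouring pair at Gnas are shown with both mature arms in capitals, because the deposited counts were made per hairpin and do not separate the arms.
Mir335: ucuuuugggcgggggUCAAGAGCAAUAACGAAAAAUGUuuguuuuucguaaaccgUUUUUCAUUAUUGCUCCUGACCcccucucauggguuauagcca
Mir296: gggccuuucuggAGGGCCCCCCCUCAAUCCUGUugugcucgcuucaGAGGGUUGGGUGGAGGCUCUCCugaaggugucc
Mir298: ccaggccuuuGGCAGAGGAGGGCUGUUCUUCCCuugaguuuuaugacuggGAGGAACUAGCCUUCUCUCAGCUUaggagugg

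The hairpins sat in unlike parts of their loci. In mm10, with 1-based positions, Mir335 (ENSMUSG00000065501.1) lies at chr6:30741299-30741396 on the plus strand, in an intron of each of the 7 Mest transcripts that span it. Mir483 (ENSMUSG00000070140.1) lies at chr7:142654924-142654996 on the minus strand, in an intron of each of the 7 Igf2 transcripts that span it. Mir675 (ENSMUSG00000076275.1) lies at chr7:142577064-142577147 on the minus strand, in an exon of 3 of the 4 H19 transcripts that span it and in an intron of the other, of 7 annotated in all. Mir296 (ENSMUSG00000065521.1, chr2:174267047-174267125) and Mir298 (ENSMUSG00000065410.1, chr2:174267504-174267585) lie on the minus strand with 378 bp between them. Both were outside the annotated Nespas gene, on its strand, 13651 bp (Mir298) and 14111 bp (Mir296) past its annotated end. Mir483 and Mir675 are 77776 bp apart. No other counted gene lay inside Mest, Gnas, Nespas, Igf2 or H19.

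**Figure D1:**
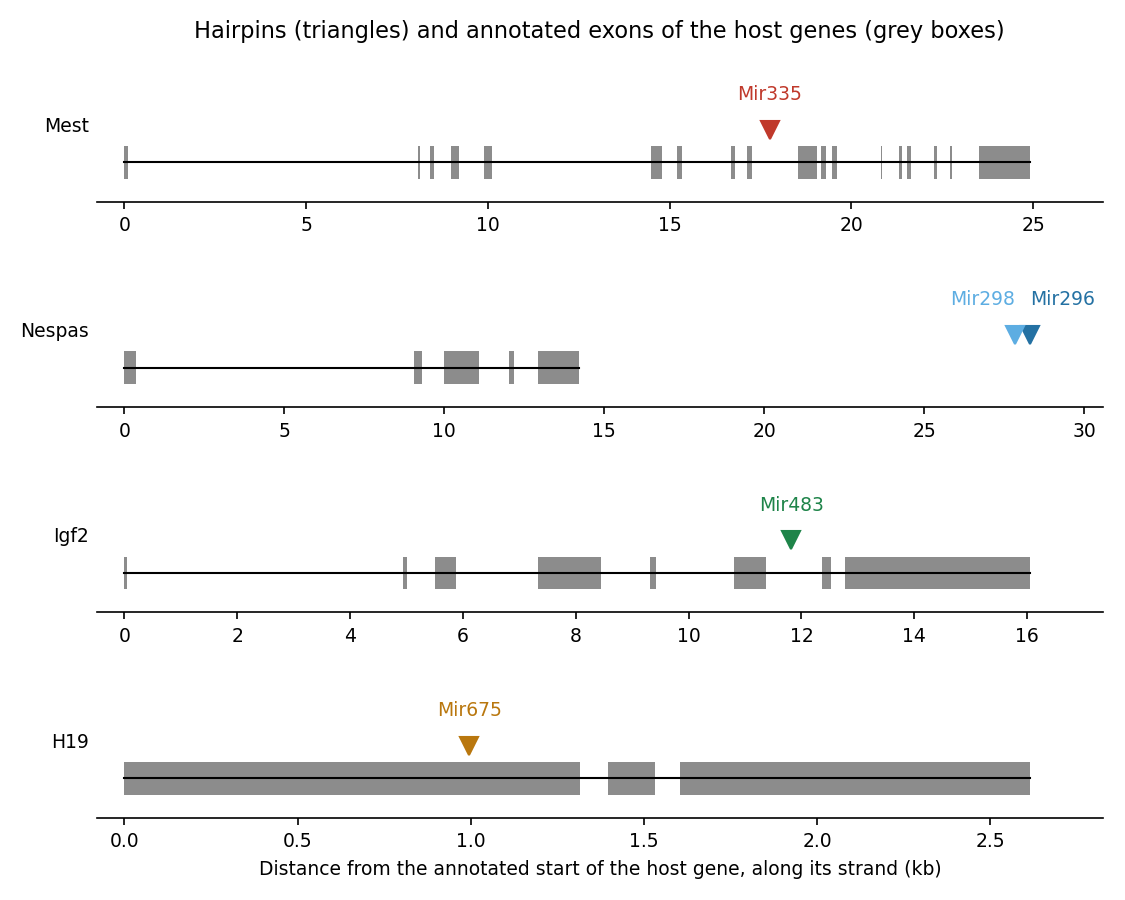
Place of each hairpin relative to a gene of its locus. The x axes give the distance in kb from the annotated start of Mest, Nespas, Igf2 and H19 along the strand of each gene, grey boxes are exons of any annotated transcript and triangles mark where a hairpin begins. Mir335 and Mir483 fall between exons, Mir675 falls within an exon of H19, and Mir298 and Mir296 lie beyond the annotated end of Nespas.

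The 5 genes were all detected in both libraries and together held 17.1% of all gene counts of replicate 1 and 16.5% of those of replicate 2, but their levels spread over more than 3 orders of magnitude. Levels are in CPM, the counts of a gene scaled by the total of the gene counts. A read covers a whole mature miRNA, so levels were not divided by length, and dividing by the hairpin length changed the order of the 5 genes only in placing Mir296 above Mir298. In tissue of many cell types, fewer cells that make a miRNA and less miRNA per cell cannot be told apart.

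Mir335, which in human breast cancer cells is known to restrain metastasis, had 512672 counts in replicate 1 and 543304 in replicate 2. These were 157451 CPM (95% exact Poisson interval 157020.4 to 157883) in replicate 1 and 151993 CPM (151589 to 152398) in replicate 2. It ranked first in either library, at 15.7% of the total in replicate 1 and 15.2% in replicate 2. These intervals cover the counting error of reads within a library and leave out the spread between libraries. PCR copies of a molecule are counted as separate reads, so for molecules the intervals can be too narrow. Mir17, a proliferation-linked miRNA and the gene next below, had 93908 CPM in replicate 1 and 98647 CPM in replicate 2. Mir335 exceeded Mir17 by 1.68-fold in replicate 1 and 1.54-fold in replicate 2, and the ranges of the 2 genes did not overlap.

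The first rank of Mir335 holds for reads that were counted. Multiply mapped reads entered no gene's count, and Mir335 would be 8.79% (replicate 1) and 8.55% (replicate 2) of gene counts and such reads together. A miRNA made at several loci would need 19.9% of the multiply mapped reads in replicate 1, and 19.5% in replicate 2, to equal Mir335. How these reads divide among miRNAs is not given in the counts.

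Mir296 and Mir298 formed the next level down. Mir296, known to act on the pluripotency factor Nanog in mouse embryonic stem cells, had 20930 counts in replicate 1 and 23677 in replicate 2, or 6428 and 6624 CPM. Mir298, known to act on the mRNA of the amyloid-processing enzyme Bace1 in mouse cells, had 22468 counts in replicate 1 and 22586 in replicate 2, or 6900.3 and 6319 CPM. Means were 6526 ± 138 CPM for Mir296 and 6609 ± 411 CPM for Mir298 (SD, n = 2), and their ranges overlapped. Mir335 was 23.7 ± 1.1 times as high as Mir296 and 23.4 ± 0.87 times as high as Mir298 (SD, n = 2).

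The genes of the Igf2 and H19 locus were lower. Mir483, known in human to be raised together with IGF2 in Wilms tumours, had 1541 counts in replicate 1 and 1724 in replicate 2, or 473 and 482 CPM, a mean of 478 ± 6.4 CPM (SD, n = 2). Mir675, which restrains growth of the mouse placenta and acts on Igf1r, had 179 counts in replicate 1 and 211 in replicate 2. That is 55.0 CPM (95% exact Poisson interval 47.2 to 63.6) in replicate 1 and 59.0 CPM (51.3 to 67.6) in replicate 2. Its mean of 57.0 ± 2.9 CPM was far above the 0.921 and 0.839 CPM that a count of 0 allows in replicates 1 and 2. Mir335 was 324 ± 12 times as high as Mir483 and 2719 ± 204 times as high as Mir675 (SD, n = 2). The spread between the libraries was small beside these gaps, with a coefficient of variation between 1.34% for Mir483 and 6.22% for Mir298.

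**Figure D2:**
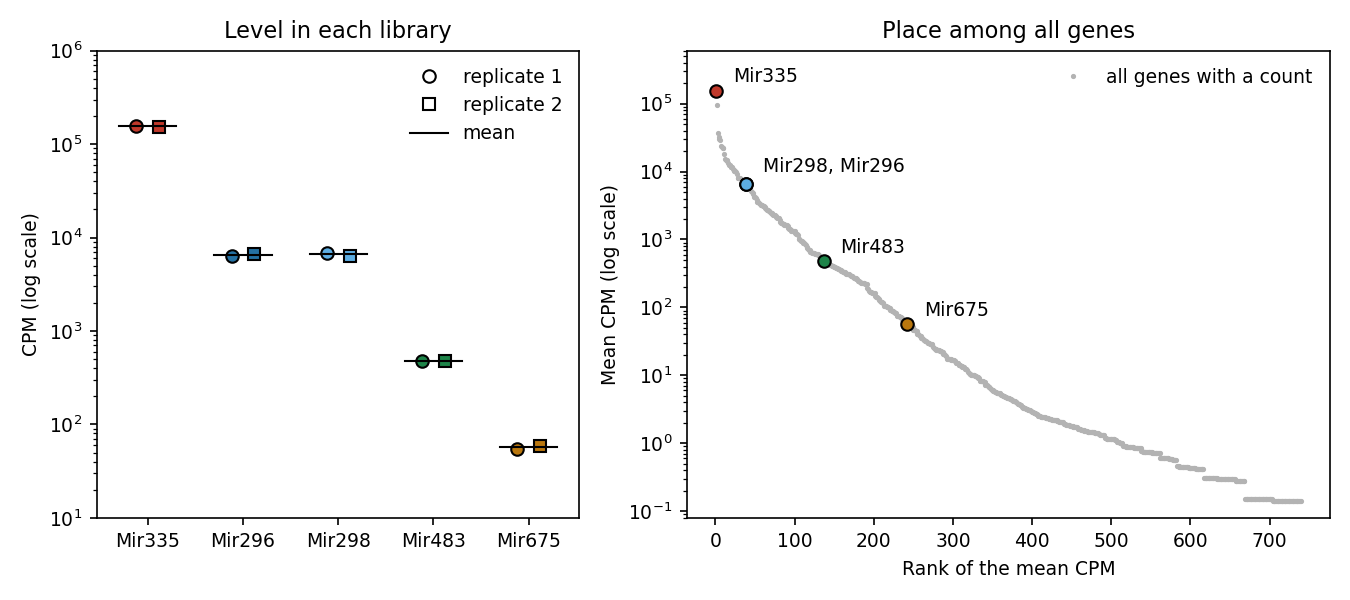
Level of the 5 genes in CPM on a log axis. The left panel gives each library (circles replicate 1, squares replicate 2) with the mean as a line, and the right panel places the means among all genes with a count, ordered by rank. The genes fall at rank 1 (Mir335), 38 (Mir298), 39 (Mir296), 137 (Mir483) and 242 (Mir675), and the 2 libraries lie close together for each.

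By mean CPM the genes ranked 1 (Mir335), 38 (Mir298), 39 (Mir296), 137 (Mir483) and 242 (Mir675) among the 1973, of which 1234 had no count in either library. All these ranks hold for reads that were counted, as multiply mapped reads entered no gene's count. A gene whose mature sequence is made at several loci can therefore rank too low, and a lack of counts does not show absence. Mir298 ranked 37 in replicate 1 and 40 in replicate 2, whereas Mir296 ranked 40 in replicate 1 and 38 in replicate 2. Their order relative to each other therefore changed between libraries. Mir483 ranked 140 in replicate 1 and 139 in replicate 2, and Mir675 ranked 245 and 240.

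Neighbours in this order were mostly not separated by the libraries. No gene had a range of CPM that overlapped that of Mir335. Mir296 overlapped with 2 genes, namely Mir298 and the gene next below, Mir30d (6134 ± 473 CPM). Mir298 overlapped with 5 genes of rank 37 to 42, the first of them Mir20b (6839 ± 198 CPM). Mir483 overlapped with 9 genes of rank 116 to 160, among them Mir3071 next below (473 ± 40 CPM). Its range did not overlap that of Mir503 next above (485 ± 2.4 CPM). However, the exact Poisson intervals of Mir483, 450 to 498 CPM in replicate 1 and 460 to 506 CPM in replicate 2, contain the Mir503 values of 483 and 487 CPM. Mir483 and Mir503 are therefore not separated beyond counting error. Mir675 overlapped with 11 genes of rank 230 to 249, among them Mir672 next above (57.0 ± 1.9 CPM) and Mir7688 next below (56.7 ± 2.3 CPM; SD, n = 2 throughout).

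The balance within the pair at Gnas was close to even. Mir296 held 48.2% of the counts of the pair in replicate 1 (95% exact Clopper-Pearson interval 47.8 to 48.7) and 51.2% in replicate 2 (50.7 to 51.6), a mean of 49.7% ± 2.1 (SD, n = 2). Mir296 was the lower of the pair in replicate 1 and the higher in replicate 2, and the counting intervals of the libraries did not overlap. With 2 libraries on opposite sides of even, no order of Mir296 and Mir298 can be given.

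In these counts, near-even levels were not the rule among neighbouring miRNA genes. Over 91 pairs of consecutive genes on a strand, at most 10 kb apart and averaging at least 100 counts each, the median gap in mean level was 2.43 on the log2 scale. The gap between the means of Mir296 and Mir298 was 0.018, and no other pair of the 91 had a smaller gap of means. That gap averages differences of opposite direction. Within a library the gap was 0.10 in replicate 1, where 3 pairs had a smaller one, and 0.07 in replicate 2, where 2 pairs did. This is a description of the pairs, which share genes and clusters, and the comparison was chosen after the values were seen. Multiply mapped reads were not counted, so a gene whose mature sequence is also made elsewhere has only a lower limit for its level. Gaps of pairs with such a gene can be too wide or too narrow, and the effect on the median of 2.43 was not tested. Mir296 and Mir298 differed more in their ratio between the libraries, by 0.17 on the log2 scale, against a median of 0.10 over the pairs, and 28 pairs differed more.

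The balance at the Igf2 and H19 locus was uneven and alike in both libraries. Mir483 held 89.6% of the counts of Mir483 and Mir675 in replicate 1 (95% exact Clopper-Pearson interval 88.1 to 91.0) and 89.1% in replicate 2 (87.6 to 90.5). These intervals overlapped. Mir483 was 8.61-fold higher than Mir675 in replicate 1 and 8.17-fold higher in replicate 2. Mir483 lies in Igf2 and Mir675 in H19, so the share sets side by side hairpins that lie in 2 different genes. Whether either miRNA was made from the RNA of the gene around it was not tested. Of all counts of the 5 genes, Mir335 held 91.9% in replicate 1 and 91.9% in replicate 2.

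**Figure D3:**
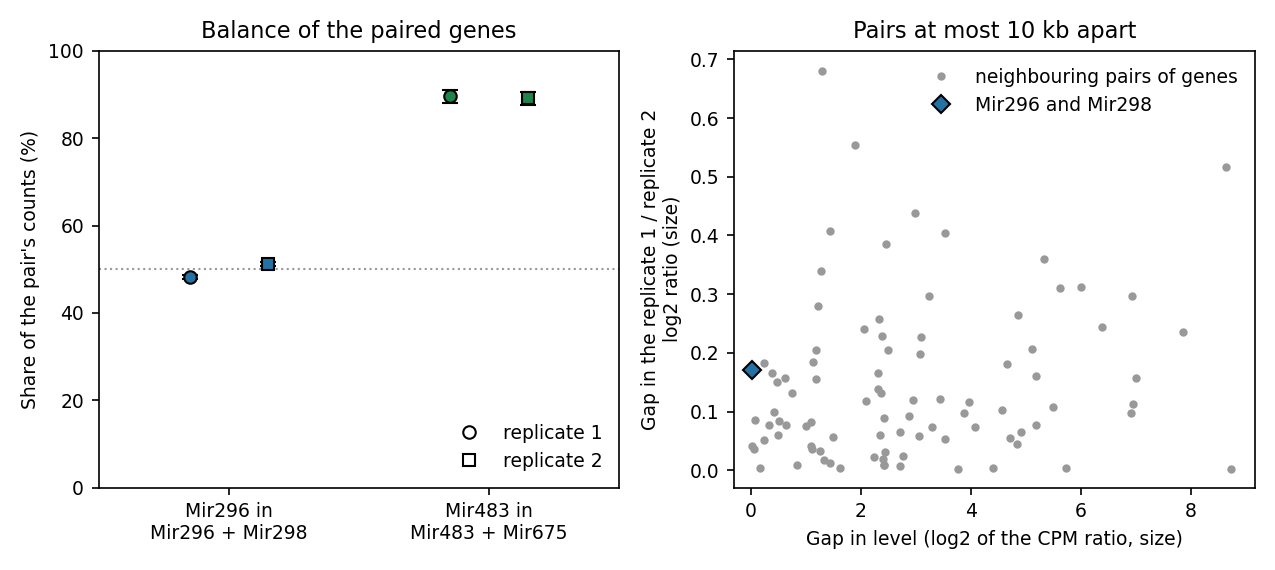
Balance of the paired genes. The left panel gives the share of the counts of a pair held by Mir296 and by Mir483 in replicate 1 (circles) and replicate 2 (squares), with 95% exact intervals and even shares dotted. The right panel gives, for 91 neighbouring pairs, the gap in mean level and the gap in the ratio between libraries on the log2 scale, and the Gnas pair (diamond) lies at 0.018 and 0.17.

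The 5 genes differed little between the 2 libraries. The log2 ratio of replicate 1 over replicate 2, scaled by the trimmed mean of M-values (TMM), ran from −0.13 for Mir675 to 0.10 for Mir298. An exact two-sided binomial test of how the counts split between the libraries, adjusted by Benjamini-Hochberg over the 401 genes whose counts averaged at least 10, compares these 2 libraries and covers counting error only. It called 3 of the 5 genes, against 43.4% of all genes tested and 59.8% of the 271 genes whose counts averaged at least 100, a set that includes all 5. The share of the 5 is near the background at such counts.

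Mir298 was higher in replicate 1, with a log2 ratio of 0.10 (adjusted p = 7.7e-12, exact binomial test). Mir335 was also higher in replicate 1, by 0.02 (adjusted p = 4.1e-12, exact binomial test), a ratio of 1.01. Scaled on the total of the other genes it was 0.06. Mir296 was lower in replicate 1, at −0.07 (adjusted p = 2.6e-07, exact binomial test), or −0.03 with that scaling. Thus 2 were called higher and 1 lower in replicate 1, where 19.7% and 23.7% of all genes tested were called higher and lower. The split over all genes depends on the scaling, with 79 higher and 95 lower under TMM, 93 and 84 under total counts or DESeq2 size factors, and 96 and 82 on the total without Mir335. At counts this high a ratio near 1 passes a test of counting error, and each of these 3 ratios is under the SD of 0.26 over the 271 genes.

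Mir483 and Mir675 did not pass the test. Mir483 had a log2 ratio of −0.06 (adjusted p = 0.42, exact binomial test) and Mir675 of −0.13 (adjusted p = 0.56, exact binomial test). In size, log2 ratios had a median of 0.07 over the 5 genes, 0.17 over all 401 genes and 0.14 over the 271 genes. Mir335 had a larger ratio, in size, than 22 of the 401 genes, Mir483 than 74, Mir296 than 88, Mir298 than 121 and Mir675 than 165, so each of the 5 lay below the median size.

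**Figure D4:**
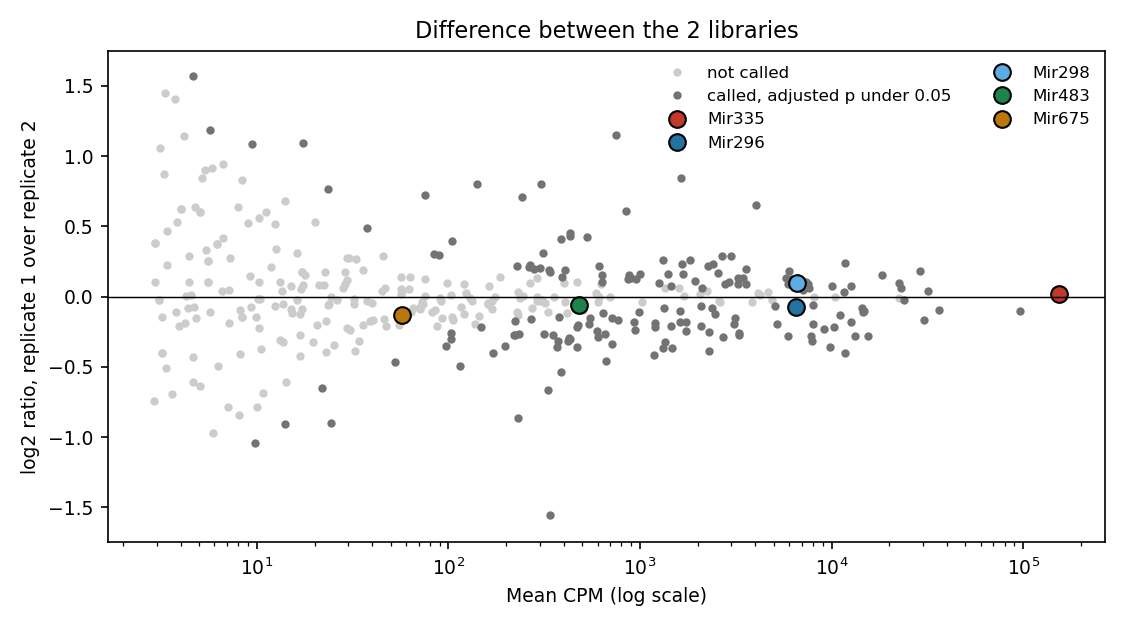
Log2 ratio of replicate 1 over replicate 2 against mean CPM (log axis) for 401 genes, dark grey where called at an adjusted p under 0.05, with the 5 genes in colour. The 5 genes lie between −0.13 and 0.10, and 3 genes outside the axis limits are not drawn.

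Genes with the closest ratio between the libraries, among those within 2-fold of the level, were picked for likeness and describe 2 libraries only. For Mir296 they were Mir382 (log2 ratio −0.07) and Mir20b (−0.09) among 40 genes. For Mir298 they were Mir181c (0.09) and Mir151 (0.09) among 38 genes. For Mir483 they were Mir301b (−0.05) and Mir455 (−0.04) among 73 genes, and for Mir675 they were Mir181b-1 (−0.14) and Mir34a (−0.14) among 60 genes. Mir181b-1 has a second locus that makes the same mature sequence, so its count is a lower limit. Only Mir17 (−0.10) lay within 2-fold of Mir335.

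Levels and ratios of other imprinted or reportedly imprinted miRNA loci are set beside those of the 5 genes. The 56 genes counted from Mir770 to Mir410 in the Dlk1-Dio3 region, whose miRNAs are maternally expressed, held 10.8% of all counts of replicate 1 and 12.6% of those of replicate 2, less than the 5 genes in each. Without Mir335, the remaining 4 genes held 1.39% in replicate 1 and 1.35% in replicate 2. Of the 45 Dlk1-Dio3 genes tested, 37 were called lower and 1 higher in replicate 1, against 23.7% lower and 19.7% higher over all 401 genes. The 401 genes include these 45. Of the 271 genes whose counts averaged at least 100, 88 were called lower and 74 higher. Under the other scalings 34 to 35 of the 45 Dlk1-Dio3 genes were called lower. Their log2 ratios had a median of −0.24, whereas the 5 genes had a median of −0.06 and all 401 genes −0.03. The difference between these lists was not tested. The 107 counted genes inside the paternally expressed Sfmbt2 held 0.505% of the counts in replicate 1 and 0.592% in replicate 2. Of these, 72 had no count in either library and 13 were tested, of which 6 were called lower and 0 higher in replicate 1, beside the same 23.7% and 19.7%. Many Sfmbt2 genes are near-identical copies, so this share is a lower limit.

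The Mir344 family, beside the paternally expressed genes Ndn and Magel2, was close to undetected. Its 13 counted genes had 27 counts in replicate 1 and 17 in replicate 2, and 7 of them had none in either library. Its copies are similar, so reads shared between them would not have been counted. Mir344f, the only member tested, had 10 counts in replicate 1 and 11 in replicate 2. Mir184, described as paternally expressed in mouse brain, had 3 counts in replicate 1 and 32 in replicate 2. It was called lower in replicate 1, with a log2 ratio of −3.11 (adjusted p = 2.6e-06, exact binomial test). Its 3 counts in replicate 1 are no more than a count of 0 allows, so the size of this ratio is uncertain. Among the reads that were counted, the summed level of the imprinted genes of these lists rested almost wholly on Mir335 and the Dlk1-Dio3 region. The part of the Sfmbt2 and Mir344 genes in that sum is a lower limit, because multiply mapped reads were left out.

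Markers of other tissues gave the setting of these levels. The miRNAs listed for forebrain progenitors, Mir9-2, Mir9-3, Mir92b, Mir130a and Mir99a, held 8.37% of the counts in replicate 1 and 7.54% in replicate 2. Of that sum, 76.4% in replicate 1 and 77.0% in replicate 2 came from Mir130a and Mir99a, which many other tissues also make, and 0.434% and 0.417% from Mir9-3, the higher of the miR-9 genes counted. Mir9-1 was not among the genes matched. The mesenchyme miRNAs (5 of 5 counted, led by Mir214 at 3850.4 ± 15 CPM) held 0.785% in replicate 1 and 0.757% in replicate 2. The endothelial miRNAs (3 of 3, led by Mir126a, with Mir143 and Mir145a also known from smooth muscle) held 3.29% in replicate 1 and 3.53% in replicate 2. Erythroid miRNAs held 0.0661% in replicate 1 and 0.0760% in replicate 2, liver and gut miRNAs 0.0153% and 0.0156%, and hindbrain and trunk miRNAs 0.0237% and 0.0297%. None of the marker genes counted was at 0 in both libraries, and the lowest count was that of Mir196a-1 of the trunk, with 2 counts in replicate 1 and 1 in replicate 2. Of the 23 marker genes counted, 8 (the miR-9, miR-199, miR-196a and miR-194 genes) share a mature sequence with another gene in the RefSeq table, so their counts are lower limits. Mir143, Mir145a and Mir122 were not matched in RefSeq, so sharing was not checked for them. Of the progenitor list 4 of 5 were called higher in replicate 1 and 0 lower. In the mesenchyme list 1 of 5 was called higher and 1 lower, and in the endothelial list 1 of 3 higher and 1 lower. In the erythroid list 1 of 2 was called lower, in the hindbrain and trunk list 2 of 4 tested lower, and in the liver and gut list 0 of 3 either way. Over all genes tested 19.7% were called higher and 23.7% lower, and 59.8% either way where counts averaged at least 100. The part of other cell types in the levels of the 5 genes was not tested.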

How the data were processed

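Small RNA under 30 nt from 2 forebrain libraries was counted per gene by the authors. The deposited values are whole-number read counts without normalization, as their unequal totals show, on mm10 with genome annotation M4, per the authors' file notes. Aligner, trimming and counting program: not given in the sources used here. Gene-strand counts were analysed, which were 96.7% (replicate 1) and 96.4% (replicate 2) of that on either strand. Tallies of reads in no gene stayed out of library sizes: unmapped 24.6% and 25.4%, multiply mapped 30.1% and 28.8%, outside listed genes 7.28% and 8.82% of reads in replicates 1 and 2.

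Symbols, positions and exons came from GENCODE M21, also on mm10, in which 1894 of 1973 identifiers were found, all 5 members with the same version. For ratios, edgeR 4.0.16 in R 4.3.3 gave the TMM factors, with 0.5 counts added to each count, and intervals are at 95%. A count of 0 allows up to 3 counts. The exact binomial test used a threshold of 0.05 on the adjusted p and was tested on simulated data with set changes and counting error alone. Because no further spread between libraries was simulated, that check cannot show how the test behaves under such spread. A chi-square statistic 45.4 times its degrees of freedom showed that the libraries are not copies. The labels number them as biological replicates, and p-values cover counting error between these 2 libraries, not the spread between samples. Alternatives included DESeq2 1.42.0 size factors. Other steps ran in Python 3.11.15 with pandas 2.3.3, scipy 1.17.1 and, for plots, matplotlib 3.10.9.

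The members and lists were chosen with earlier results of these data known. Named genes are the 5 members, their neighbours in rank, the closest 2 in ratio within 2-fold of the level, and genes sharing a seed or host locus, of which there were none. Mir196a-1, Mir214 and Mir126a were named from the marker lists after their values were seen, and so was the comparison with neighbouring pairs of miRNA genes.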

Additional observations from a re-analysis of the deposited data

Results flagged for a closer look

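Reads on the opposite strand of a member exceeded the 3 counts that a count of 0 allows only at Mir335, with 4 in replicate 1 and 8 in replicate 2, in a column the comparisons did not use. They were 0.00078% and 0.0015% of the counts on the strand of the gene. The other 4 genes had no opposite-strand count in either library. The source of these reads was not tested.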

How the results depend on the processing

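The first rank of Mir335, the near-even share of Mir296 and the 3 members called held under each alternative run, and no ratio changed sign. Levels moved with the denominator. With all reads they were 58056 (Mir335), 2448 (Mir296), 2481 (Mir298), 179 (Mir483) and 21.4 (Mir675) CPM, and with gene counts and multiply mapped reads, a choice made after seeing the data, 86692, 3657, 3703, 268 and 31.9 in the same order. With Mir335 left out of the total, Mir296 had 7720.1, Mir298 7820.5, Mir483 565 and Mir675 67.4 CPM. With counts on either strand, Mir335 had 149368, Mir296 6299.7 and Mir483 461 CPM, and ranks were 145 for Mir483 and 251 for Mir675. Divided by hairpin length, Mir296 ranked 34, Mir483 ranked 132 and held 90.6% of its pair. Without either replicate in turn, Mir483 ranked 139 to 140. Under other scalings the log2 ratio of Mir335 reached 0.06 and that of Mir296 −0.03 (adjusted p = 0.031, exact binomial test, the highest over 7 settings, from 1.8e-07). Genes called numbered 163 to 182, and which direction held more of them changed with the scaling, as given above. No paired analysis was possible because there is 1 group, and no ratio can be had without a replicate. With 2 libraries each SD is itself uncertain.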
